A study of Homo sapiens with 4 samples.

Results

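The EGFR family comprises receptor tyrosine kinases at the cell surface and the secreted or shed growth factors that activate them. Of these genes, 9 were examined: the ligands AREG, EREG, HBEGF, TGFA and NRG1, the receptors EGFR, ERBB2 and ERBB3, and ERRFI1, which encodes an inhibitor of the receptor kinases. They were chosen by gene symbol, as all lines of the deposited table that carry one of the 9 symbols, and the list itself was drawn up with measured values of this table in view. All 9 were listed, with 27 transcripts, among 15113 gene symbols and 43596 transcripts in all. The cells were MDA-MB-231, a human breast cancer line of the triple-negative kind, established in culture and treated for 24 h with DMSO, the solvent, or with 10 µM KH-3, a compound that blocks the binding of the RNA-binding protein HuR to mRNA. Each treatment had 2 mRNA-seq libraries (DMSO, 2 libraries; KH-3, 2 libraries), made from a single line grown in 6-well plates.

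The value analysed is the mean normalized read count of each transcript, which the authors averaged over libraries before deposit. Whether only these 4 libraries entered the mean is not stated in the sources used here. No value per library or per treatment is analysed, so each level below belongs to DMSO-treated and KH-3-treated cells together, has no replicate error, and cannot show a response to KH-3. No test was run, and no difference between genes was set against a spread. Read depth per library is unknown. In bulk RNA, a higher level in each cell and a larger share of cells with the mRNA cannot be told apart.

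EGF-type ligands are made as membrane-anchored precursors that metalloproteases cut free. AREG, EREG, HBEGF and TGFA bind EGFR, EREG and HBEGF also bind ERBB4, and NRG1 binds ERBB3 and ERBB4. Bound receptors pair with one another and signal to the RAS-ERK and PI3K-AKT pathways; ERBB2 has no known ligand of its own, and ERBB3 has little kinase activity and works in pairs. In triple-negative breast cancer cells, ERBB2 is by definition not amplified, and EGFR is often the main receptor of the family.

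HuR binds AU-rich or U-rich stretches, typically in 3′UTRs. The pentamer AUUUA is the usual mark of the AU-rich ones, and U-rich stretches without it were not searched. The stretches of 29 bases that hold the most AUUUA in the 3′UTR of the leading protein-coding transcript are shown for 7 members, to let the AU-rich stretches be compared between genes. NRG1 and ERBB2 are not among them: their leading coding transcripts held no AUUUA. The stretches of ERRFI1 and ERBB3 hold a single copy each, and no 29 bases of those 3′UTRs held more. Among stretches with equally many copies, the one with its copies nearest the middle was taken, then the first. The ERRFI1 stretch is therefore 1 of several with a single copy, and the 2 copies of the longer motif UAUUUAU in that 3′UTR lie elsewhere. They were read 5′ to 3′ from GENCODE release 44 transcripts on hg38, with each AUUUA in capitals, and are matches of letters rather than known binding sites.
AREG, chr4:74454947-74454975, plus strand: uAUUUAauAUUUAauggaaguguAUUUAu
EREG, chr4:74387368-74387396, plus strand: ccAUUUAuuucAUUUAcaaaagAUUUAuu
HBEGF, chr5:140333666-140333694, minus strand: AUUUAuuuuauucuauguauguuaAUUUA
TGFA, chr2:70447474-70447502, minus strand: guuaauAUUUAauguuuuaAUUUAuuuug
EGFR, chr7:55210242-55210270, plus strand: uuauAUUUAcaauugauaugcAUUUAcca
ERRFI1, chr1:8012980-8013008, minus strand: uacaagucuauaAUUUAaagaugugaugg
ERBB3, chr12:56102072-56102100, plus strand: cacucagggagcAUUUAauggcagcuagu

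Across the 9 genes, the inhibitor ERRFI1, the receptor EGFR and the ligand EREG were listed at the highest levels, and the receptors ERBB2 and ERBB3 at the lowest. For comparison between genes, the mean normalized read count of each transcript was divided by its length in kb and summed over the listed transcripts of the gene. This level per kb was 2073 for ERRFI1, 1242 for EGFR, 976 for EREG, 415 for AREG, 399 for HBEGF, 303 for NRG1, 163 for TGFA, 44.3 for ERBB2 and 34.4 for ERBB3. The highest and the lowest of the family were 60.2-fold apart on this scale. They were between 79.7-fold and 104-fold apart under the 4 alternative ways of summing transcripts. The 104-fold value, from the leading transcript alone, sets ERRFI1 against a retained-intron transcript of ERBB2. The median over all 15113 genes was 108, so 7 of the 9 members lay above it. Above the 90th percentile of all genes, a level per kb of 797, lay 3 of the 9. Of all these genes, 12120 have a listed protein-coding transcript, as each member does, and levels were not ranked among those alone. The members were also chosen with measured values in view. Because the mean has no error, the order of close neighbours, such as AREG and HBEGF with a ratio of 1.04, is not established.

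**Figure D1:**
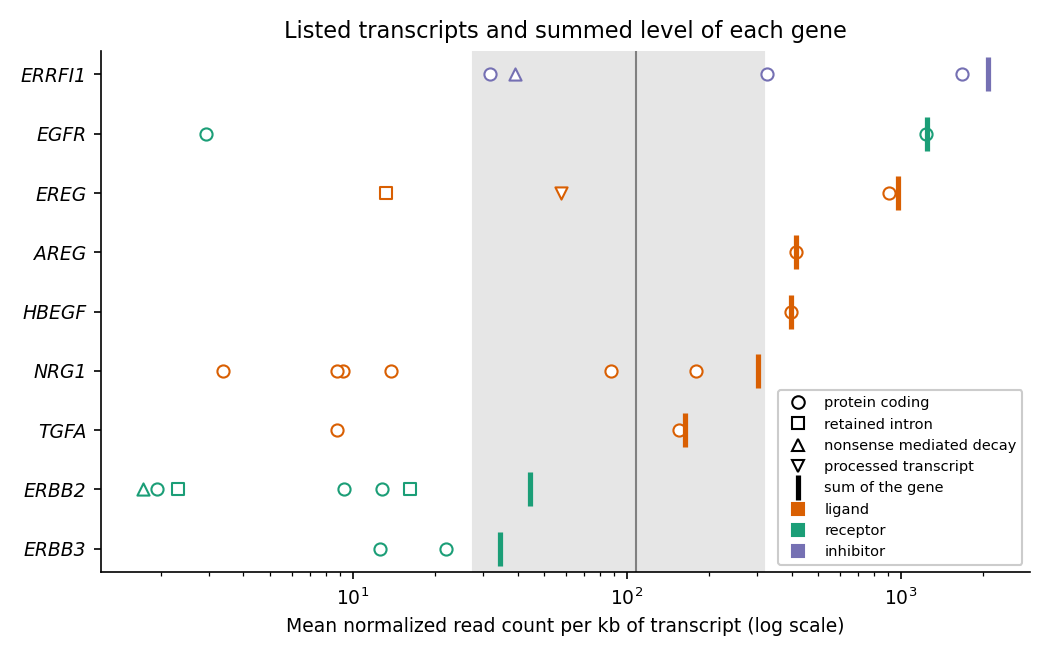
Mean normalized read count per kb of transcript (x axis, log scale) for each listed transcript of the 9 genes (open symbols, shaped by annotated type) and their sum per gene (vertical bar); the grey band and line are the quartiles and the median over all genes. The sums of 5 genes stand above the band, namely ERRFI1 (2073), EGFR (1242), EREG (976), AREG (415) and HBEGF (399), while the sums of ERBB2 (44.3) and ERBB3 (34.4) lie in its lower part.

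Among the receptors, EGFR made up 94.0% of the summed level per kb. EGFR (ENSG00000146648) is a plus-strand gene at chr7:55019017-55211628 in hg38, and 1.88% of the bases of its listed transcripts also lie in exons of EGFR-AS1 on the opposite strand. Its transcript EGFR-001, of 9821 bases in the table, had a mean normalized read count of 12174, and the second listed transcript, EGFR-202, had 13.8. EGFR-001 encodes 1210 codons in GENCODE release 44, and it carried 99.8% of the level per kb of the gene, which placed EGFR at percentile 94.2 of all genes. The level per kb of EGFR was 28.1-fold that of ERBB2 and 36.1-fold that of ERBB3. These ratios depended on how the few reads of ERBB2 and ERBB3 were summed. With protein-coding transcripts only they were 51.5 and 36.1, and with a minimum mean of 20 they were 55.9 and 56.7. With the leading transcript alone they were 76.8 and 56.7. The leading ERBB2 transcript is the retained-intron ERBB2-002, so 76.8 sets the coding EGFR-001 against an RNA that is not protein-coding. The highest coding ERBB2 transcript, ERBB2-201, was at 12.8 per kb.

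ERBB2 (ENSG00000141736, chromosome 17 from 39687914 to 39730426, plus strand), the gene amplified in HER2-positive breast cancer, was at percentile 32.8 of all genes. Its summed mean normalized read count of 141 was split over 6 transcripts, none above 58.5. The protein-coding ERBB2-201, ERBB2-202 and ERBB2-008 had mean normalized read counts of 58.5, 40.5 and 8.83. The other 3 were the retained-intron transcripts ERBB2-002 with 13.7 and ERBB2-010 with 11.4, and the nonsense-mediated-decay transcript ERBB2-007 with 7.79. ERBB2-008, ERBB2-201 and ERBB2-202 are nearly the same RNA: in release 44, 94.6% of the exonic bases of ERBB2-008 also lie in ERBB2-201, and 99.4% of those of ERBB2-202 do. How the reads of ERBB2 were divided among these 3 transcripts therefore rested on few bases. Per kb, the 849-base retained-intron transcript ERBB2-002 held 36.4% of the gene, more than any coding transcript, although it held 9.73% of its mean normalized read count. With protein-coding transcripts alone, the level per kb of ERBB2 was 24.1 and that of ERBB3 was 34.4, so their order turned. The end of ERBB2 also shares 167 exonic bases with MIEN1 on the opposite strand, 2.15% of the bases of the listed ERBB2 transcripts, and reads there cannot be assigned without strand.

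ERBB3 (ENSG00000065361, chromosome 12 from 56076799 to 56103505, plus strand) was at percentile 28.7 of all genes. The full-length transcript ERBB3-001, with 1342 codons, had a mean normalized read count of 129, which is 90.9% of that of the gene. The other transcript, ERBB3-006, is 1027 bases long, encodes 183 codons and was listed at 12.9 on the same scale. ERBB3 shares 31 exonic bases, 0.509% of those of its listed transcripts, with ENSG00000257411 on the same strand. Summed over all listed transcripts, the mean normalized read counts of ERBB3 and ERBB2 were 142 and 141. ERBB4, the remaining receptor of the family, was listed with 1 transcript at a mean normalized read count of 9.23. Its level per kb of 0.761 was at rank 15105 of 15113 listed genes. The read count of ERBB4 is close to the lowest value listed, 7.34, and genes without a line have no rank.

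The 4 EGFR-binding ligands together had a level per kb of 1953, against 303 for NRG1. EREG, the gene of epiregulin (ENSG00000124882), held 43.3% of the summed level per kb of the 5 ligands. Its transcript EREG-001 had a mean normalized read count of 4182, and the processed transcript EREG-003 and the retained-intron transcript EREG-002 had 34.5 and 17.1. The gene was at percentile 92.1 of all genes. AREG, the gene of amphiregulin (ENSG00000109321), was listed with AREG-001 alone, at a mean normalized read count of 514. EREG had 8.23-fold the mean normalized read count of AREG but 2.35-fold its level per kb, since EREG-001 is 4619 bases long and AREG-001 1240. AREG was at percentile 80.2.

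EREG and AREG are neighbours. EREG lies on chromosome 4 from 74365145 to 74388749 and AREG from 74445136 to 74455005, both on the plus strand, with 56386 bases and no protein-coding gene between them. The cluster of 4 EGF-type ligand genes that holds them spans 486 kb, from EPGN to BTC. BTC, the gene of betacellulin on the minus strand, had a level per kb of 7.78, and EPGN, the gene of epigen, had no line in the table. Within 1 stretch of chromosome 4, the levels per kb of the ligand genes therefore ran from 976 for EREG down to 7.78 for BTC, with EPGN not listed.

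HBEGF, the gene of heparin-binding EGF (ENSG00000113070, chromosome 5 from 140332843 to 140346603, minus strand), was listed with HBEGF-001 alone. This transcript of 2386 bases had a mean normalized read count of 952, and the gene was at percentile 79.4. TGFA, the gene of transforming growth factor alpha (ENSG00000163235, chromosome 2 from 70447284 to 70554193, minus strand), had TGFA-001 at a mean normalized read count of 666 and TGFA-016 at 10.7. All exonic bases of TGFA-016 lie within the exons of TGFA-001 in release 44, so reads inside 1 exon of the shorter transcript also match the longer one. Reads across a splice junction may differ, as TGFA-016 encodes 159 codons and TGFA-001 160. TGFA was at percentile 59.5, the lowest of the 5 ligands, and EREG was 5.98-fold higher per kb.

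NRG1, the gene of neuregulin 1 (ENSG00000157168, chromosome 8 from 31639222 to 32855666, plus strand), is known for many start sites and splice forms. It had 6 listed transcripts, all annotated as protein-coding, where release 44 annotates 35 of any type. NRG1-004, of 5931 bases and 637 codons, had a mean normalized read count of 521, and NRG1-007, of 886 bases and 125 codons, had 159. The remaining 4 (NRG1-003, NRG1-006, NRG1-011 and NRG1-201) had between 8.12 and 21.7. NRG1-004 therefore held 70.0% of the summed mean normalized read count, but per kb the short NRG1-007 held 59.3% of the gene and NRG1-004 29.04%. These transcripts start at different sites, NRG1-004 at 32548267 and NRG1-007 at 32605648, and 36.9% of the bases of NRG1-007 lie in exons of NRG1-004. Of the bases of the listed NRG1 transcripts, 2.21% also lie in exons of ENSG00000286131, a protein-coding gene on the same strand with no line. With the summed reads divided by the longest listed transcript instead, the level per kb of NRG1 was 125 and that of TGFA 157, so that NRG1 rather than TGFA was the lowest ligand.

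ERRFI1 (ENSG00000116285, chromosome 1 from 8004404 to 8026309, minus strand) encodes MIG6, a cytoplasmic protein that binds the kinase domain of EGFR and is itself induced by growth factor signalling. At percentile 97.2 of all genes, it had the highest level per kb of the 9. The full-length transcript ERRFI1-001, with 462 codons, had a mean normalized read count of 5205. ERRFI1-002, which begins further downstream and encodes 79 codons, had 681, and the coding ERRFI1-004 and the nonsense-mediated-decay transcript ERRFI1-005 had 31.6 and 30.9. EGFR had 2.05-fold the mean normalized read count of ERRFI1, whereas per kb ERRFI1 was 1.67-fold above EGFR. The level per kb of the leading transcripts alone gave the same order, 1677 for ERRFI1-001 and 1240 for EGFR-001.

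**Figure D2:**
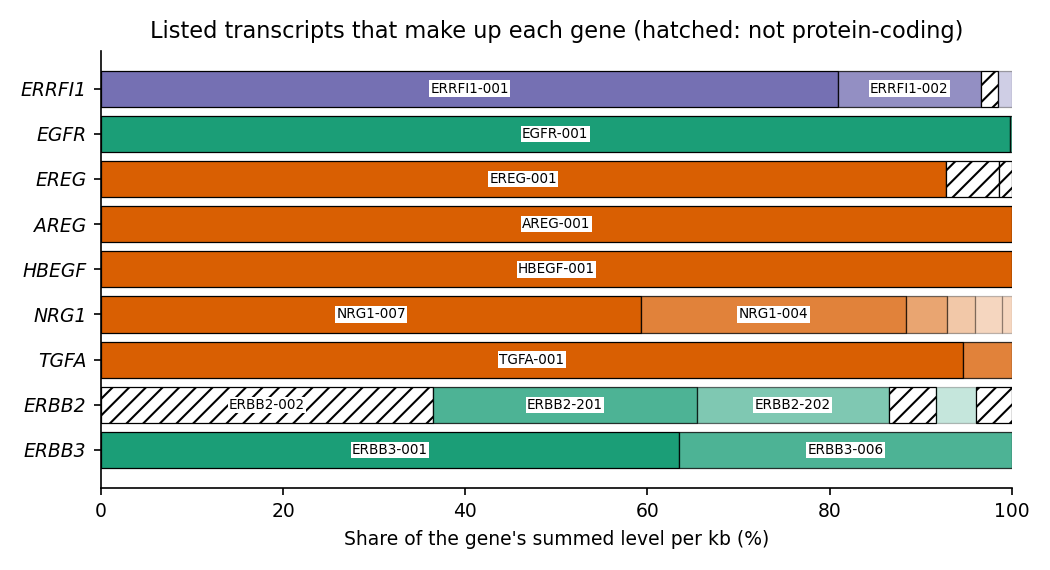
Share of each gene's summed level per kb (x axis, %) held by each of its listed transcripts, from the highest at the left, with transcripts that are not annotated as protein-coding hatched. A single transcript holds 90% or more of EGFR, EREG, AREG, HBEGF and TGFA, whereas NRG1, ERBB2 and ERBB3 are divided, with leading shares of 59.3%, 36.4% and 63.5%.

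In 5 of the 9 members, the leading transcript held 90% or more of the level per kb, against 27.3% of the 12120 genes with a listed protein-coding transcript. The median leading share was 92.7% over the members and 68.0% over these genes, and the median number of listed transcripts was 2 and 3. Of the 27 transcripts, 21 were annotated as protein-coding (77.8%, against 67.0% of the 39314 transcripts of the same 12120 genes), 3 as retained intron, 2 as nonsense-mediated decay and 1 as processed transcript. Coding transcripts made up 97.7% of the summed level per kb of the members, against 80.1% over these genes. AREG and HBEGF were listed with 1 transcript each, so their leading share is 100% by definition. The comparison was not matched for the number of listed transcripts or for level. These are descriptions of 9 genes, with no test. Of the member transcripts, 11 had a mean normalized read count under 20, close to the lowest value listed, 7.34.

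The other genes of the pathway came from lists of ligands, receptors, sheddases, adaptors and negative regulators. Of 6 other ligand genes, EGF, BTC and NRG2 were listed, at levels per kb of 30.0, 7.78 and 2.79, and EPGN, NRG3 and NRG4 had no line. None of the 3 listed genes reached the median of all genes, whereas all 5 member ligands did. The members were chosen with measured values in view, so this contrast may follow from that choice and is not independent of it. The sheddases, which release the ligands from the membrane, and their cofactors were all listed, with 4 of 5 above the median. ADAM10, which releases EGF and BTC, was the highest at 1188 per kb, and ADAM12 the lowest at 7.02. ADAM17, which releases AREG, EREG, HBEGF and TGFA, was at 351. These levels are sums over all listed transcripts, 8 for ADAM10 and 1 for ADAM17. The summed mean normalized read counts of ADAM10 and ADAM17 were 3135 and 1526. Among 8 adaptors and effectors, 5 were above the median, from PIK3R1, a regulatory subunit of PI3-kinase, at 26.5 to GRB2, the adaptor that links receptors to SOS and RAS, at 690. Of 13 negative regulators and turnover genes, 10 were above the median. They ran from the ubiquitin ligase gene CBLB at 42.1 to HGS, which sorts ubiquitinated receptors to the lysosome, at 1882. HGS was summed over 10 listed transcripts, with a leading share of 33.1%. The level per kb of ERRFI1, 2073, was above that of each of these 13 genes.

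**Figure D3:**
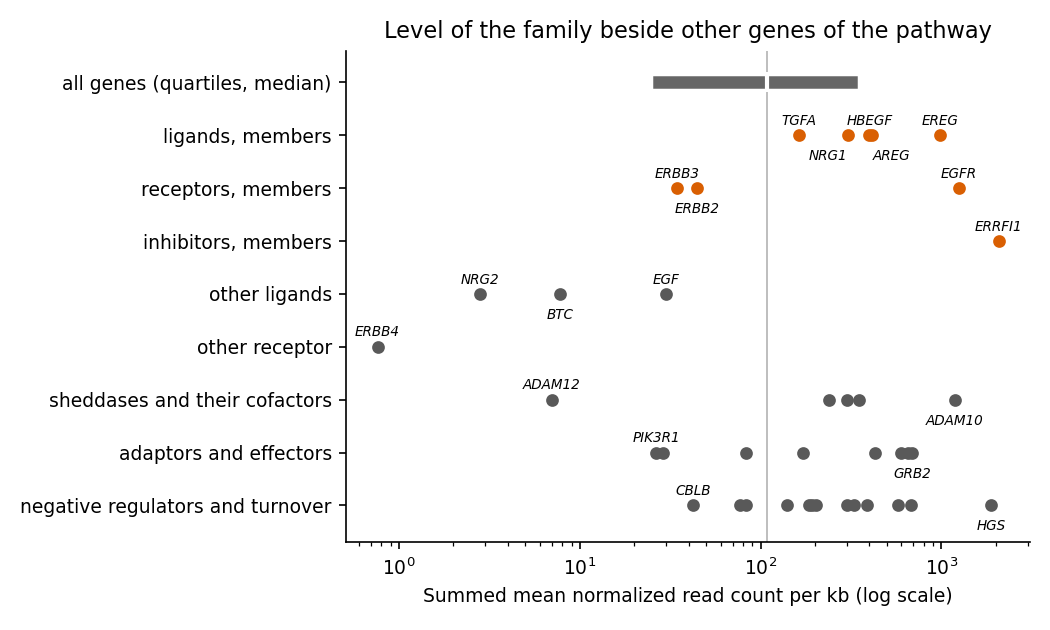
Summed mean normalized read count per kb (x axis, log scale) of the 9 members (orange) and of the other pathway genes that were listed (grey), 1 point per gene, beside the quartiles and median of all genes. The 5 member ligands, chosen with measured values in view, lie between 163 and 976, and the other listed ligands between 2.79 and 30.0.

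The cell line label was checked with markers. All 6 mesenchymal markers (VIM, CD44, AXL, CAV1, SPARC and MSN) were listed above the median of all genes, VIM at 10135 per kb. The hormone receptor genes ESR1 and PGR and the epithelial cadherin gene CDH1 had no line, and GATA3 and FOXA1 were at 29.5 and 39.5 per kb. The epithelial keratin gene KRT19, expected to be low, was at 2426 per kb. Of 4 markers of other cell types (PTPRC, PECAM1, CD3E and COL1A2), PECAM1 alone was listed, at 4.08 per kb.

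In the 3′UTR of the leading coding transcript, 7 of the 9 members held at least 1 AUUUA, or 77.8%, against 71.1% of the 11888 genes with such a 3′UTR. The number followed no single pattern over the family. The AREG 3′UTR had 4 copies in 265 bases, or 15.1 per kb of 3′UTR, at percentile 99.6 of all genes, and 3 of the 4 lie in the 29 bases printed above. EREG had 20 copies in 3941 bases, or 5.07 per kb, at percentile 90.5. TGFA, HBEGF and ERRFI1 had 13, 5 and 5 copies, or 3.64, 3.43 and 3.37 per kb, at percentiles 79.5, 77.1 and 76.4. The median over all genes was 1.68 per kb.

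Each receptor lay below the median per kb, EGFR and ERBB3 only slightly. EGFR had 9 copies in a 3′UTR of 6011 bases, or 1.497 per kb, at percentile 47.0 of all genes. Genes with a 3′UTR of like length had a median of 13 copies. ERBB3 had 2 copies in 1450 bases, at percentile 44.7, against a like-length median of 3. ERBB2 had none in 618 bases, at percentile 14.5, against a like-length median of 1. The ligand NRG1 was at the same percentile as ERBB2. NRG1 depended on the transcript, with none in the 506 bases of NRG1-007 and 12 in the 3557 bases of NRG1-004. ERRFI1 did so as well, with 5 copies in ERRFI1-001 and none in the 1843-base 3′UTR of ERRFI1-002. The longer motif UAUUUAU, every copy of which contains AUUUA, occurred in 5 of the 9 members, namely AREG (1 copy), EREG (4), HBEGF (2), TGFA (2) and ERRFI1 (2), against 33.4% of all genes with at least 1. None was found in the leading coding transcripts of EGFR, ERBB2, ERBB3 and NRG1. This too depended on the transcript, as NRG1-004 had 1 copy and ERRFI1-002 had none. The search covered the sense strand, overlapping copies were counted, and no binding of HuR to these sequences was measured in the values used here.

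**Figure D4:**
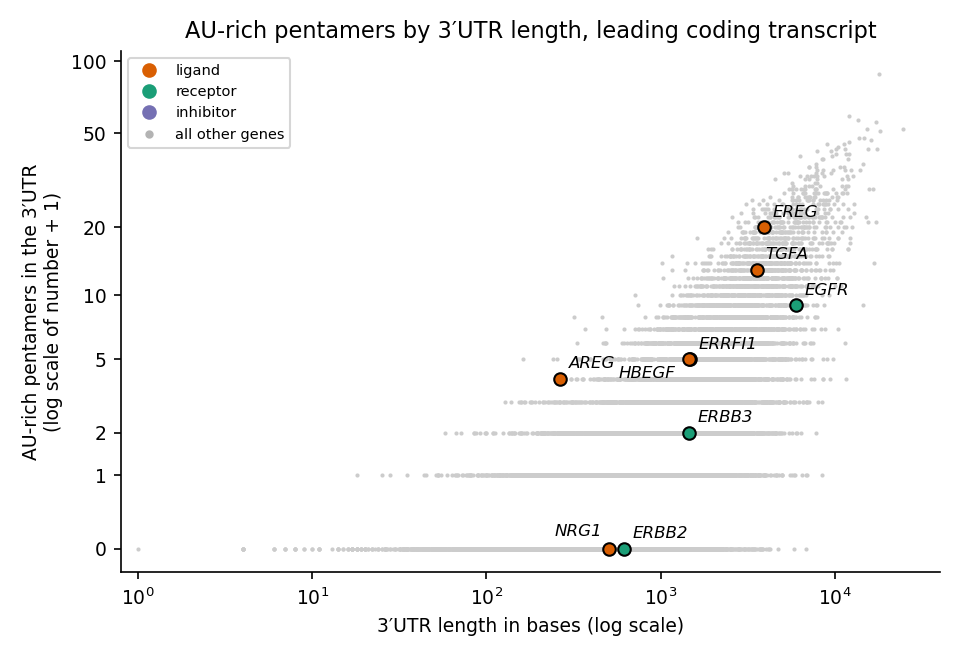
Number of AU-rich pentamers (y axis, log scale of the number plus 1) against 3′UTR length in bases (x axis, log scale) in the leading coding transcript of each gene, with members coloured by role and all other genes in grey. AREG has 4 in a short 3′UTR of 265 bases and EREG 20 in 3941 bases, while EGFR has 9 in 6011 bases and ERBB2 none.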

How the data were processed

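The MDA-MB-231 libraries, 2 for DMSO and 2 for KH-3, were grouped by their titles. According to the paper's methods, the authors mapped reads with STAR to GENCODE release 24 transcripts, counted them per transcript with eXpress and compared groups with DESeq2. Tool versions are not given in the sources used here, and hg38 is the build in the submitters' processing notes. The methods also name a 5 µM KH-3 group, not analysed here. The deposited mean normalized read count is a signal that the authors averaged over libraries after normalization, not divided by length. The log2 fold changes, p-values and q-values of the deposited table are the authors' own comparison and were not used, so treatments are not compared and nothing was tested.

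Each mean was divided by the transcript length in the table. Shared reads were divided by eXpress, so transcript values of 1 gene are not independent. Percentiles are over the listed genes or transcripts. Transcripts under 7.34 are not listed, so a gene with no line may still be transcribed. Of 27 member transcripts, 25 were found by ID in GENCODE release 44, 16 of them with equal length. Coordinates, codons, exon overlaps and 3′UTRs come from that release. 3′UTRs start after the stop codon, and like length means within 1.2 times. Alternatives covered transcript types, a minimum mean of 20, the length correction, the leading transcript alone, the 3′UTR chosen and the motif. All members, the remaining ligands and receptors, and the highest and lowest gene of each other list were named. The marker genes are those of the marker lists. ADAM17 and the overlapping genes MIEN1, EGFR-AS1, ENSG00000286131 and ENSG00000257411 were named besides, after their values were seen. Members and lists were chosen with earlier results of these data known. Computations were tested on simulated data. Python 3.11.15, numpy 2.4.6, pandas 2.3.3 and matplotlib 3.10.9 were used.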

Additional observations from a re-analysis of the deposited data

How the results depend on the processing

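The number of members above the median of all genes was 7 under every alternative for the level (protein-coding transcripts only, a minimum mean normalized read count of 20, division by the longest listed transcript, and the leading transcript alone). The order of the 9 genes was unchanged with the minimum of 20, and 2 places changed under each of the other 3 alternatives: ERBB2 and ERBB3 exchanged places with coding transcripts only and with the leading transcript alone, and NRG1 and TGFA with division by the longest transcript. The level per kb of ERBB2, 44.3, fell to 24.1, 22.2, 28.6 and 16.1 under these 4 alternatives in the order given, and that of ERBB3, 34.4, to 21.9 with the minimum of 20 and with the leading transcript alone. The ERBB2 value of 16.1 is that of its leading transcript, the retained-intron ERBB2-002. A minimum of 20 left 16 of the 27 member transcripts. With shares of reads instead of level per kb, a single transcript held 90% or more of 6 members rather than 5. The longest annotated 3′UTR, which can belong to a transcript that is not listed, also gave 7 members with AUUUA, but not the same ones: NRG1 went from 0 copies to 28, ERRFI1 from 5 to 0, and ERBB3 from 2 to 1. No paired analysis was possible because the table holds 1 mean over libraries and no value per library, and for the same reason no replicate could be left out. Depth per library, replicate error and any difference between DMSO and KH-3 remain unknown in the values used.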
